A study of Homo sapiens with 9 samples.

Results

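Bare gold nanoparticles were compared with no treatment in Y79 cells, a line established from a human retinoblastoma, a childhood tumour of the retina. The comparison took 6 of the 9 arrays of the series, 3 titled as controls (untreated cells in RPMI medium) and 3 titled as gold nanoparticles without peptide. The other 3 arrays, of cells given particles that carry an HDM2 peptide, entered no test here and are quoted beside some values. All 9 arrays were Affymetrix PrimeView arrays hybridized with biotin-labelled cRNA. The particles' size, coating and dose, the time of exposure and whether arrays of a group came from separate cultures are not given in the sources used here. The p-values therefore weigh a change only against the spread of these arrays, and that spread may be technical. The labels spell the cell line Y79 and in places Y97. All groups share the 1 cell line.

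Each deposited value was relative to its probe set's own baseline and was taken as log2, a base the sources used here do not state. The values hold no absolute level, so a value of 0 means the baseline and not absence. A gene was the mean of its probe sets with 1 gene symbol, and 18132 genes were compared. The position given for untreated 3 on a gene is that of this mean.

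Cells meet metal, oxidants and amino acid shortage with separate gene programmes. Metallothioneins are small cysteine-rich proteins that bind zinc and other metals, and the zinc sensor MTF1 drives them through short metal response elements in their promoters. NRF2 drives genes for quinone reduction, cystine uptake and glutathione synthesis through antioxidant response elements. ATF4, which is made when translation is slowed by stress kinases, drives genes for amino acid synthesis, transport and tRNA charging. In retinal tumour cells, as in others, the heat shock factor HSF1 and the tumour suppressor p53 drive further stress programmes.

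The 3 untreated arrays did not lie together. Over all genes, the median absolute difference between 2 arrays was 0.0962 to 0.106 (log2) among particle arrays, 0.147 between untreated 1 and 2, and 0.163 to 0.229 between untreated 3 and the other untreated arrays. Untreated 3 lay 0.129 to 0.167 from the particle arrays, nearer than untreated 1 (0.259 to 0.285) or untreated 2 (0.187 to 0.216). For 11087 of 18132 genes (61.1%), untreated 3 lay nearer to the particle mean than to the mean of untreated 1 and 2. The 6 probe sets for ribosomal RNA among the array controls averaged -0.603, -0.437 and 0.494 on untreated 1, 2 and 3 and between -0.111 and 0.0374 on the particle arrays. Other array controls set other arrays apart. The 27 poly-A controls averaged -0.401, -1.22 and -0.0453 on untreated 1, 2 and 3 and -0.4, -0.271 and 0.151 on particle 1, 2 and 3. The 18 hybridization controls averaged -0.399, -0.429 and -0.324 on the untreated arrays and 0.149, -0.544 and 0.0427 on the particle arrays. The part of these controls in the results was not tested. The trace that the stored numbers keep of their level put 5263 of 18132 genes (29%) in the brightest of 3 level classes. Of photoreceptor markers 7 of 31 were there (22.6%, below the share of all genes), among them CRX, NRL and RBP3. Of retinal progenitor markers 6 of 12 were there (50%), among them PAX6 and RAX. The class also held 2 of 12 Mueller glia, 3 of 20 inner retinal neuron and 1 of 10 pigment epithelium markers. It held 1 of 13 fibroblast markers (FBLN1) and 2 of 12 blood markers (CD3E and CD8A). No marker of any of the 7 cell type lists passed the test between the groups, and these lists had median changes of -0.18 to 0.093. Single photoreceptor markers changed by -0.32 to 1.54. Their median was 0.17 against untreated 1 and 2 and -0.1 against untreated 3. Without untreated 3, 11 of 31 photoreceptor markers were called higher and 0 lower, while 0 of 12 blood markers were called higher and 5 lower. Of all genes, 15.1% were called higher and 15.4% lower in that fit.

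With bare particles, 57 genes rose (0.314% of genes tested) and 4 fell (0.0221%) by limma at an adjusted p under 0.05. List counts given below for this fit stand against these shares. MT1X, PIR, MT1F, NQO1 and CTH rose most, and FOS, TFRC, PLEK2 and HAPLN4 fell. Of the 61 genes, 24 changed at least 2-fold, 23 of them upward. In a limma test over 44988 single probe sets, 24 rose (0.0533%) and 2 fell (0.00445%). Only 14 of the 61 genes had at least 1 probe set called in that test. Named genes without a called probe set include CTH, DHRS2, GSTA4, PHGDH, NDC80 and CDC25C, besides those for which this is said below. On all 61 the 3 particle values lay apart from the 3 untreated values, which was so for 34% of all genes. The median change was -0.1 over probe sets of the dimmest level class, -0.022 over the middle and 0.072 over the brightest. Shares of all genes with groups apart were not matched to the level of a list. With arrays centred within level classes, the list medians were 0.41 for ATF4 targets and 0.34 for G2 and mitosis. They were 0.29 for aminoacyl-tRNA synthetases and -0.24 for immediate early genes. Since each array measured RNA of a whole culture, a change in every cell and a change in the share of cells with high levels cannot be told apart.

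The number of calls rested on single arrays. Without untreated 3 it was 5538 (30.5% of genes, 2737 higher and 2801 lower), with all 61 genes among them. Without untreated 2 limma called 0 genes, although 3381 had an unadjusted p under 0.05 and the 61 genes all kept their direction. In that fit MT1X, PIR, MT1F, DDIT4 and INHBE had a limma adjusted p of 0.0502, just over the threshold. NQO1 (0.123) and CTH (0.136) lay farther from it. Without untreated 1, 34 of the 61 were called. Without particle 1, 2 or 3 the calls were 3, 7 and 5, and MT1F and PIR were called in all of these. On none of the 61 genes was untreated 3 nearer to the particle mean than to the mean of untreated 1 and 2.

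MT1X and MT1F, the metallothioneins that rose, were the first and the third largest rises. Their promoters are shown because metal response elements sit there, next to those of MT2A, a metallothionein for which no change was detected, and SLC30A1, the plasma membrane zinc exporter, which rose. The letters are the 250 bases before the annotated start in RefSeq (GRCh38.p14), with matches to the metal response element core in capitals. The core was searched as TGCACNC or TGCGCNC on both strands over 300 bases, 250 before and 50 after the start. Of 27305 RefSeq promoters 29.3% held at least 1 match and 2.27% held 3 or more. MT1X is at chr16:56682220-56682469 (plus strand), MT2A at chr16:56608334-56608583 (plus strand) and SLC30A1 at chr1:211579162-211579411 (minus strand).
MT1X: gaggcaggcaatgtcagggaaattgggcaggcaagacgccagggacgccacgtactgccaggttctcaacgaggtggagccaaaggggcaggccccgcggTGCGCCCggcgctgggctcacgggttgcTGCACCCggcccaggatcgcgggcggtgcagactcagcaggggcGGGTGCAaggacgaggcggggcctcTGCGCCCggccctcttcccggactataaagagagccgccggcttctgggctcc
MT2A: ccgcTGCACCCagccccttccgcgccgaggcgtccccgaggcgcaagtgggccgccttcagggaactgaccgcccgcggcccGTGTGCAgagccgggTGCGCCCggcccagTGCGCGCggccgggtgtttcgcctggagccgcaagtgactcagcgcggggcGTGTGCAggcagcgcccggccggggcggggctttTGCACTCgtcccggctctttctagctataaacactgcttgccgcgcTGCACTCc
SLC30A1: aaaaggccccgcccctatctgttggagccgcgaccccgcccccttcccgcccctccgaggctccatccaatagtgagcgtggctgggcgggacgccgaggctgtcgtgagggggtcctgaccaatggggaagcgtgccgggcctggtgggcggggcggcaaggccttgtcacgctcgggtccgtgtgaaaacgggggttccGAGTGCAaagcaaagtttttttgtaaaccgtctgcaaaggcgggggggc
MT1X held 4 matches, all before the start, and SLC30A1 held 2, of which 1 lay before the start. MT2A held 8, of which 1 lay after the start. The number of matches did not follow the size of the change. Among the 50 genes that rose and have a RefSeq promoter, 15 (30.0%) held a match, close to the share of all promoters. A match is a description of letters and not a measured binding site, and MT1F has no entry in the table of promoters.

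MT1X read -2.74, -2.69 and -3.81 on untreated 1, 2 and 3 and 0.48, 0.44 and 0 on particle 1, 2 and 3. It was 10.4-fold higher with particles, a log2 change of 3.38 (standard error 0.29, 3 arrays in each group, limma adjusted p = 0.00662). The groups lay far apart, and untreated 3 was the lowest array, farther from the particle arrays than untreated 1 and 2. MT1F read -2.35, -2.26 and -2.60 without treatment and 0.44, 0.15 and -0.30 with particles, a change of 2.50 with an error of 0.18 (adjusted p = 0.00518). Here too untreated 3 was lowest by the mean, though on 1 of the 2 probe sets it lay between untreated 1 and 2, and the change against untreated 3 alone was 2.70.

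The metallothionein list had 10 measured genes of 13 listed, of which 2 rose and none fell, against 0.314% and 0.0221% of all genes. Its median change was -0.063, against -0.056 over all genes. Of the 17 metallothionein probe sets 3 were called. The MT1X probe sets changed by 2.95 and 3.82, both with an adjusted p of 0.0163. Those of MT1F differed in size, with 3.98 (adjusted p = 0.00339) and 1.02 (adjusted p = 0.0924). The 13 probe sets of the 8 other genes (MT1B, MT1E, MT1G, MT1H, MT1M, MT2A, MT3 and MT4) changed by -0.31 to 0.41, the lowest adjusted p being 0.207. MT2A, the metallothionein usually most abundant in human tissue, read -0.62, -0.0093 and -0.38 without treatment and -0.32, 0 and -0.29 with particles. Its groups overlapped, with untreated 3 between untreated 1 and 2 (change 0.14, error 0.16, adjusted p = 0.597). Metallothionein genes are near-identical, so signal may be shared between members, which was not tested. The called probe sets of MT1X carry the suffixes a and x and that of MT1F the suffix s. The maker gives these suffixes to sets matching several transcripts, of the same gene for the suffix a.

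**Figure D1:**
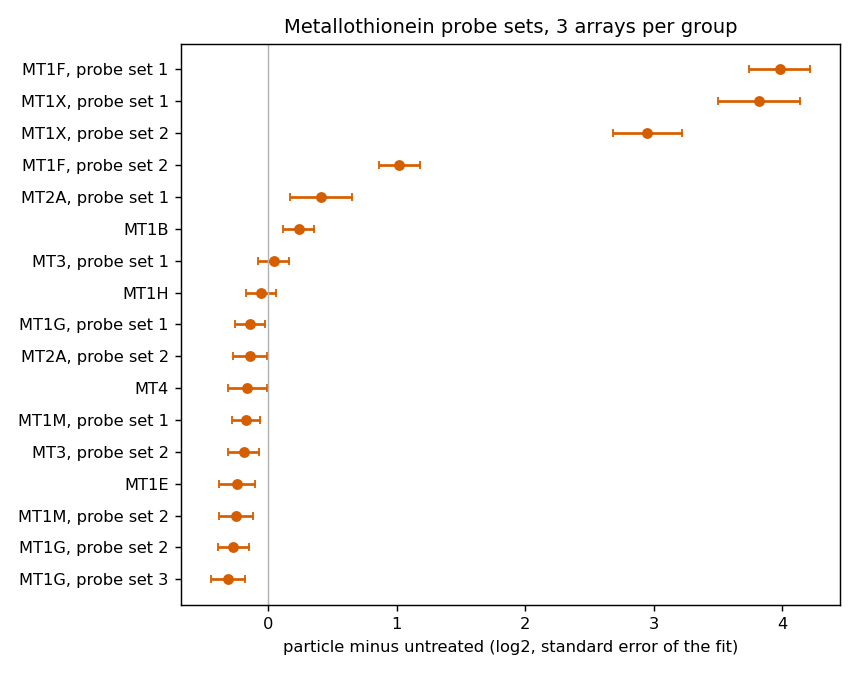
Change (particle minus untreated, log2, horizontal axis) of each of the 17 metallothionein probe sets with 1 gene symbol, with the standard error of the fit as bars (3 arrays per group). The 4 probe sets of MT1X and MT1F lie at 1.02 to 3.98 and the other 13 at -0.31 to 0.41.

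SLC30A1, which carries zinc out of the cell and is a target of MTF1, read -0.55, -1.07 and -1.22 on untreated 1 to 3 and 0.18, 0.17 and 0.26 on particle 1 to 3. It rose by 1.15 with an error of 0.17 (adjusted p = 0.0458), and untreated 3 was the lowest array by the mean of its probe sets. They disagreed on that: untreated 3 was lowest on one (-2.10, against -0.36 and -1.09) and the highest untreated array on the other (-0.34, against -0.74 and -1.05). Neither probe set was called alone (adjusted p = 0.147 and 0.0935). SLC30A1 was the 1 member called of 24 zinc transport and MTF1 genes, whose median change was -0.05. With arrays centred within level classes, where 55 genes rose (0.303%) and 5 fell (0.0276%), 60 in all (0.331%), no member of that list was called.

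PIR, an iron-binding nuclear protein that NRF2 is known to drive, had the smallest adjusted p of all genes. It read -2.38, -2.80 and -2.98 without treatment and 0.40, 0.16 and 0 with particles, so that its untreated values all lay more than 2 log2 units below its particle values. It was 7.49-fold higher, a change of 2.90 with an error of 0.17 (adjusted p = 0.00191), and untreated 3 lay lowest. NQO1, a quinone reductase, read -1.75, -2.01 and -2.18 without treatment and 0.93, 0.008 and 0 with particles. It rose by 2.29 with an error of 0.25 (adjusted p = 0.0175), with particle 1 well above particle 2 and 3. Untreated 3 was lowest by the mean, but its probe sets disagreed. On the one that was called, untreated 3 was the highest untreated array (-1.95, against -2.0 and -2.28), and on the other it was the lowest (-2.40, against -1.50 and -1.73).

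SLC7A11, the cystine importer that feeds glutathione synthesis and is driven by both NRF2 and ATF4, read -1.42, -1.41 and -1.66 without treatment and 0.43, -0.11 and 0.33 with particles. It rose by 1.71 with an error of 0.15 (adjusted p = 0.00816), and untreated 3 again lay lowest. Its probe sets did not move alike. They changed by 2.24 and 3.03 (both adjusted p = 0.0163) and by -0.14 (adjusted p = 0.573), and untreated 3 was lowest on the second of these and between untreated 1 and 2 on the first. BLVRB, biliverdin reductase B, was the fourth NRF2 target called, with a change of 1.15 and an error of 0.17 (adjusted p = 0.0459). It falls outside the naming rule and is named because it completes the count, and its untreated 3 value (-1.66) lay below -1.31 and -1.0 of untreated 1 and 2.

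Of 33 NRF2 targets 4 rose and none fell, against 0.314% and 0.0221% of all genes. Their median change was 0.16, against -0.056 over all genes. Other well-known targets did not pass the threshold. HMOX1, which breaks down haem, read -2.63, -2.60 and -2.80 without treatment and -0.62, -1.65 and -2.32 with particles. By the mean of its probe sets the groups were apart and untreated 3 was lowest. The particle arrays were spread over more than a log2 unit, and the change of 1.15 had an error of 0.36 (adjusted p = 0.118). The groups overlapped on the probe sets that changed by 0.73 and 0.81 and were apart on the one that changed by 1.89. On the one that changed by 0.81, untreated 3 lay between untreated 1 and 2. GCLM, the modifier subunit of the enzyme that starts glutathione synthesis, read -1.26, -0.91 and -0.53 without treatment and 0.14, 0.087 and 0.0023 with particles. Its change was 0.98 with an error of 0.17 (adjusted p = 0.069), and untreated 3 lay 47.8% of the way from the mean of untreated 1 and 2 to the particle mean. Without untreated 3 the adjusted p of GCLM was 0.00135. TXNRD1, thioredoxin reductase, read -0.055, -0.27 and 0 without treatment and 0.19, -0.088 and 0.15 with particles, so the groups overlapped and untreated 3 lay among the particle values (change 0.19, error 0.12, adjusted p = 0.3). Without untreated 3, 13 NRF2 targets were called higher and 4 lower, against 15.1% and 15.4% of all genes in that fit.

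Of 26 glutathione genes 1 was called, against 0.336% of all genes: GSTA4, a glutathione transferase that detoxifies lipid peroxidation products. It read -0.70, -0.30 and -0.35 without treatment and 0.68, 0.64 and 0.48 with particles. The groups were apart, untreated 3 lay between untreated 1 and 2, and the rise was 1.06 with an error of 0.13 (adjusted p = 0.0268). The glutathione list had a median change of 0.2. An antioxidant response element, searched as TGACNNNGC, was matched in 10 of the 50 promoters of genes that rose (20%) and in 13.6% of all. The PIR promoter held TGACTCAGC on the minus strand, 27 to 35 bases from the start on the transcribed side, and the same letters were in the MT2A promoter. GSTA4 held TGACCTGGC in the 9 bases before its start, and NQO1 held no match in these 300 bases. SLC7A11 has no entry in the table of promoters.

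**Figure D2:**
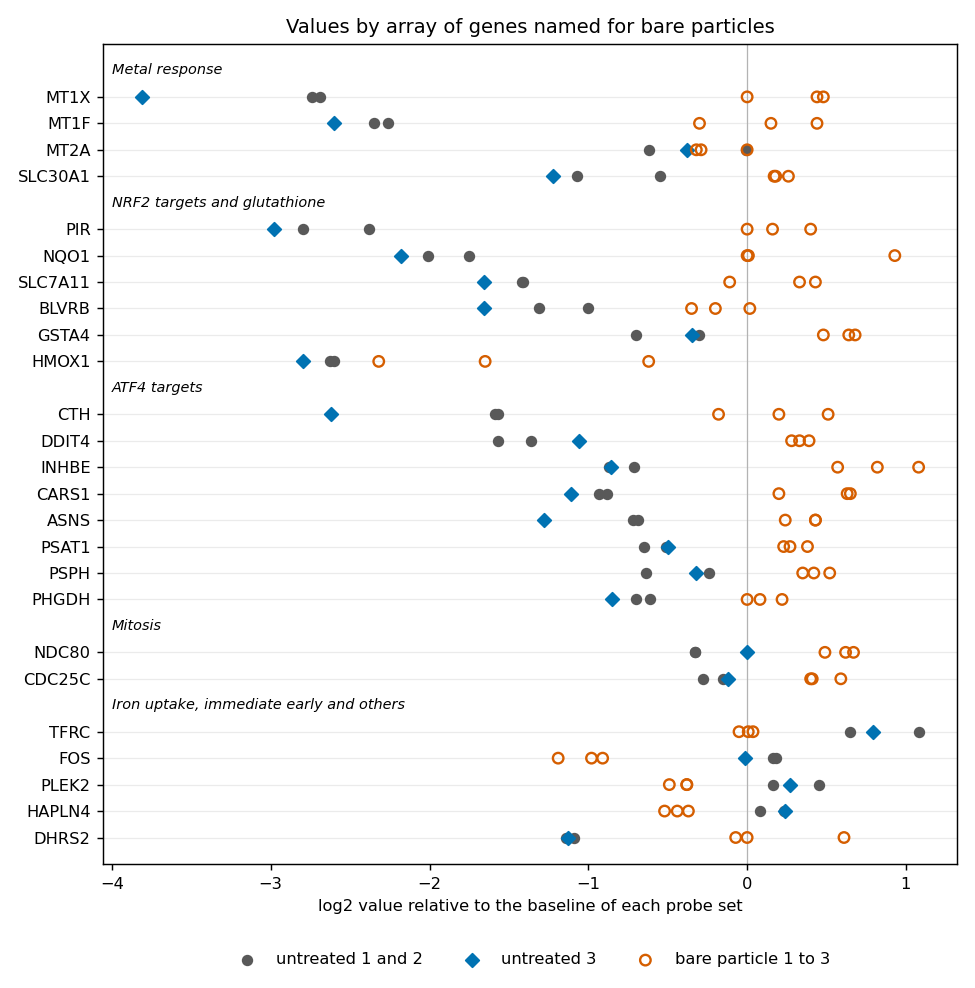
Value on each array (log2 relative to the baseline of the probe sets, horizontal axis) of genes named for the comparison, grouped by role. Filled circles are untreated 1 and 2, diamonds untreated 3 and open circles the particle arrays. All genes shown except MT2A have particle values apart from the untreated values, and on MT1X, PIR, NQO1 and CTH untreated 3 is the lowest array.

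ATF4 targets were the list with most calls. Of 39 measured, 8 rose and none fell: INHBE, DDIT4, SLC7A11, PSAT1, PHGDH, ASNS, CTH and PSPH. Of all genes, 0.314% rose and 0.0221% fell. The median change of the list was 0.41 against -0.056 over all genes, and on 18 members the particle values lay above all untreated values, which was so for 12.4% of all genes. Against untreated 1 and 2 alone the median was 0.29, and against untreated 3 alone it was 0.46. Untreated 3 lay nearer to the particle mean on 15 of the 39 (38.5%, against 61.1% of all genes). None of the 8 called members is among those 15. Calls had to differ from all 3 untreated arrays, so this share is given as a description.

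INHBE, the activin E subunit, read -0.87, -0.71 and -0.86 without treatment and 0.82, 0.57 and 1.08 with particles. It rose by 1.64 with an error of 0.14 (adjusted p = 0.00616), with untreated 3 between untreated 1 and 2. DDIT4, an inhibitor of mTORC1 that ATF4, hypoxia and p53 can all induce, read -1.36, -1.57 and -1.06 without treatment and 0.33, 0.28 and 0.39 with particles. It rose by 1.66 with an error of 0.13 (adjusted p = 0.00616). Untreated 3 lay nearer to the particle arrays than untreated 1 and 2 but still 1.39 below their mean. DDIT4 was the 1 member called of 32 hypoxia and glycolysis genes.

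The next group makes amino acids. CTH, which makes cysteine by transsulfuration, read -1.59, -1.57 and -2.62 without treatment and 0.20, -0.18 and 0.51 with particles. It rose by 2.10 with an error of 0.29 (adjusted p = 0.0415), and untreated 3 lay about a log2 unit below the other untreated arrays. PHGDH, the first enzyme of serine synthesis, read -0.61, -0.70 and -0.85 without treatment and 0.081, 0 and 0.22 with particles. It rose by 0.82 with an error of 0.10 (adjusted p = 0.0312), with untreated 3 lowest. PSAT1, the second enzyme, read -0.65, -0.51 and -0.50 without treatment and 0.23, 0.27 and 0.38 with particles. It rose by 0.84 with an error of 0.093 (adjusted p = 0.0182), and untreated 3 was level with untreated 2, 8.32% of the way to the particle mean. Of its 8 probe sets 3 were called, and all 8 changed upward, by 0.15 to 1.26.

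PSPH, which ends serine synthesis, rose by 0.83 with an error of 0.12 (adjusted p = 0.0458), with untreated 3 between untreated 1 and 2. ASNS, asparagine synthetase, rose by 1.26 with an error of 0.16 (adjusted p = 0.0319), with untreated 3 (-1.28) below the others (-0.69 and -0.72). These members of the ATF4 list fall outside the naming rule and complete its count. In all, 4 of 24 serine, one-carbon and transsulfuration genes rose and none fell, against 0.314% and 0.0221% of all genes. Their median change was 0.26. Among members just short of the threshold, chosen after their values were seen, ATF5 changed by 1.16 (adjusted p = 0.0505) and PCK2 by 1.14 (adjusted p = 0.0642). DDIT3, which codes for the stress factor CHOP, did not pass the test. It read 0.20, -1.13 and -1.67 without treatment and 0.10, -0.54 and 0 with particles. Its groups overlapped because untreated 1 was the highest array, while untreated 3 was the lowest (change 0.72, error 0.42, adjusted p = 0.287).

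CARS1, which loads cysteine onto its tRNA, read -0.88, -0.93 and -1.11 without treatment and 0.63, 0.20 and 0.65 with particles. It rose by 1.47 with an error of 0.14 (adjusted p = 0.00937), with untreated 3 lowest, and its 3 probe sets were all called, at 1.45 to 1.49. Of 20 aminoacyl-tRNA synthetases it was the 1 called. On 10 the particle values lay above all untreated values and on none below, against 12.4% and 21.5% of all genes, and the median change was 0.32. GARS1, the glycine enzyme, chosen after its values were seen, changed by 0.62 (adjusted p = 0.0592). In the CARS1 promoter TGATGCAA, a match to the C/EBP-ATF composite element searched as TGATGNAA, lay across the start on the minus strand. That element was matched in 4 of the 50 promoters of genes that rose (8.0%) and in 3.67% of all. INHBE has no entry in the table of promoters.

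None of 28 genes for ER chaperones and the unfolded protein response was called, and their median change was 0.047. Amino acid transporters had 1 called of 27, which was SLC7A11, and a median of 0.016.

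DHRS2, a mitochondrial dehydrogenase on no list, read -1.14, -1.09 and -1.13 without treatment and 0.61, 0 and -0.072 with particles. The untreated arrays agreed closely, with untreated 3 between the others, and the rise was 1.3 with an error of 0.17 (adjusted p = 0.0347). Particle 1 again stood above particle 2 and 3, as on NQO1 and HMOX1.

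FOS, an immediate early factor of the AP-1 complex, fell most. It read 0.16, 0.18 and -0.013 without treatment and -0.91, -0.98 and -1.19 with particles. It was 2.19-fold lower and fell by 1.13 on the log2 scale with an error of 0.11 (adjusted p = 0.00937), and untreated 3 lay a little toward the particle arrays. Its 4 probe sets changed by -2.04 to -0.55, and 1 was called. FOS was the 1 call among 23 immediate early genes, of which 11 had particle values below all untreated values (21.5% of all genes did) and none above (12.4% of all genes). The median of the list was -0.24, or -0.33 against untreated 1 and 2 and -0.075 against untreated 3.

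TFRC, the transferrin receptor, through which cells take up iron, read 1.08, 0.65 and 0.79 without treatment and 0.037, -0.051 and 0.007 with particles. It was 1.79-fold lower and fell by 0.84 with an error of 0.12 (adjusted p = 0.0458), with untreated 3 between untreated 1 and 2. Its probe sets changed by -1.22, -1.12 and -0.19, and none was called alone. None of the other 22 iron handling genes was called, and the list's median change was -0.031.

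PLEK2, a pleckstrin family protein, read 0.45, 0.16 and 0.27 without treatment and -0.38, -0.38 and -0.49 with particles. It fell by 0.71 with an error of 0.10 (adjusted p = 0.0458), with untreated 3 between untreated 1 and 2. HAPLN4, a link protein of the neural extracellular matrix, read 0.23, 0.079 and 0.24 without treatment and -0.44, -0.37 and -0.52 with particles. It fell by 0.63 with an error of 0.093 (adjusted p = 0.0459), and untreated 3 was the array farthest from the particle values. Each of these genes has 1 probe set, which was not called in the test over probe sets, where 24 rose (0.0533%) and 2 fell (0.00445%).

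Of 30 genes of G2 and mitosis, 2 rose, against 0.314% of all genes. NDC80, a kinetochore protein, read -0.33, -0.33 and 0 without treatment and 0.67, 0.62 and 0.49 with particles. It rose by 0.81 with an error of 0.12 (adjusted p = 0.0458), and untreated 3 lay 36.0% of the way to the particle mean. CDC25C, the phosphatase that starts mitosis, read -0.28, -0.15 and -0.12 without treatment and 0.59, 0.40 and 0.41 with particles. It rose by 0.65 with an error of 0.098 (adjusted p = 0.0464), and untreated 3 lay next to untreated 2, 14.8% of the way.

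On 21 of the 30 genes the particle values lay above all untreated values and on none below, against 12.4% and 21.5% of all genes. The median change was 0.41, but it was 0.52 against untreated 1 and 2 and 0.20 against untreated 3. Untreated 3 lay nearer to the particle mean on 19 of the 30 (63.3%), close to the share of all genes. CCNB1, cyclin B1, chosen after its values were seen, shows this: it read 0.31, 0.38 and 1.22 without treatment and 1.43, 1.32 and 1.45 with particles (change 0.77, error 0.22, adjusted p = 0.107). Without untreated 3, 22 of the 30 were called higher and none lower, against 15.1% and 15.4% of all genes in that fit.

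Across the 20 named genes that passed the test, untreated 3 lay beyond untreated 1 and 2 on the side away from the particle arrays on 10, between them on 5 and beyond them toward the particle arrays on 5. Over all 61 called genes it lay away on 20, between on 17 and toward on 24. Its median position on the 61 was 6.48% of the way from the mean of untreated 1 and 2 to the particle mean. Over all genes that median was 68.3%. Calls had to differ from all 3 untreated arrays, so this describes how they were picked. Of 302 genes at least 2-fold apart between the particle mean and the mean of untreated 1 and 2, untreated 3 lay nearer to the particle mean on 254 (84.1%). Of the 5538 genes called without untreated 3 the same was so for 3889 (70.2%), and on 1325 untreated 3 lay within the range of the particle arrays. Untreated 1 and 2 enter both the choice of these genes and the position of untreated 3, so a deviation of untreated 1 and 2 alone raises these shares, and they are given as a description.

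**Figure D3:**
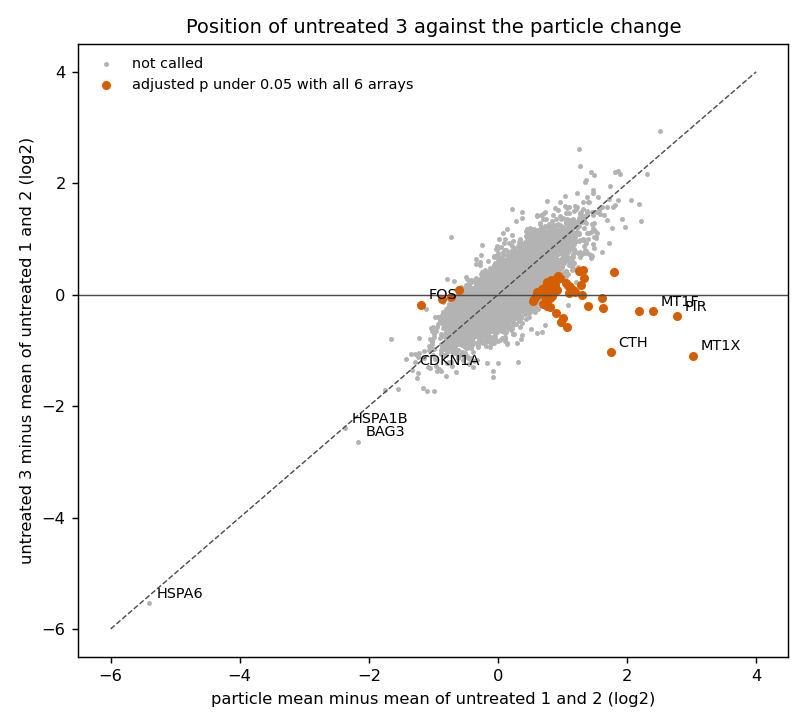
Each point is 1 of 18132 genes. The horizontal axis is the particle mean minus the mean of untreated 1 and 2 and the vertical axis is untreated 3 minus the same mean, both log2, so the axes share untreated 1 and 2. Genes on the dashed line have untreated 3 at the particle mean and genes on the solid line have it at the mean of untreated 1 and 2. The 61 genes called with all 6 arrays (orange) lie above or below the solid line, nearer to it than to the dashed line. Of the 57 that rose, 23 have untreated 3 beyond untreated 1 and 2 toward the particle arrays, above the solid line. HSPA6, HSPA1B, BAG3 and CDKN1A lie near the dashed line.

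On some heat shock genes untreated 3 lay within or below the particle values. Those given here were chosen after their values were seen. HSPA6, a strictly inducible HSP70, read -0.84, -0.82 and -6.37 on untreated 1, 2 and 3 and -6.76, -6.07 and -5.88 with particles. Untreated 3 lay within the particle range, and untreated 1 and 2 were more than 5 log2 units above (change -3.56, error 1.3, adjusted p = 0.145). HSPA1B, an inducible HSP70, read -1.46, -1.40 and -3.83 without treatment and -3.97, -3.63 and -3.83 with particles (adjusted p = 0.14). BAG3, the HSP70 co-chaperone of selective autophagy, read -0.68, -0.45 and -3.20 without treatment and -2.64, -2.85 and -2.69 with particles (adjusted p = 0.218). Untreated 3 lay at or below the particle values on both.

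HSPH1, an HSP110 chaperone, differed from these: it read -0.12, -0.76 and -0.70 without treatment and -1.61, -1.37 and -1.66 with particles, so untreated 3 stayed with untreated 2 (change -1.02, error 0.17, adjusted p = 0.0661). None of 25 heat shock genes was called with all 6 arrays, and without untreated 3, 12 were called lower and 3 higher, against 15.4% and 15.1% of all genes in that fit. Untreated 3 lay nearer to the particle mean on 18 of the 25 (72%, against 61.1% of all genes).

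Among p53 targets, CDKN1A, the cell cycle inhibitor p21, read 1.46, 1.04 and -0.11 without treatment and -0.081, -0.02 and -0.13 with particles. Untreated 3 lay within the particle range, and the change of -0.87 had an error of 0.34 (adjusted p = 0.158); without untreated 3 the change was -1.33 (adjusted p = 0.000986). ZMAT3, an RNA-binding p53 target chosen after its values were seen, read 0.66, 0.56 and -0.22 without treatment and -0.44, -0.31 and -0.48 with particles (adjusted p = 0.107). SESN2, a stress-induced target of both p53 and ATF4 chosen in the same way, lay otherwise: it read -0.39, -0.89 and -1.30 without treatment and 0.0077, -0.17 and 0.30 with particles, with untreated 3 the lowest array (change 0.91, adjusted p = 0.0926).

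MDM2, the p53 ubiquitin ligase also named HDM2, read -0.027, -0.045 and -0.18 without treatment and -0.28, -0.24 and -0.20 with particles. Its change was -0.16 with an error of 0.089 (adjusted p = 0.273), and untreated 3 lay 70.0% of the way to the particle mean. Its 11 probe sets changed by -0.51 to 0.59, and none was called. MDM4, the related p53 inhibitor, read 0.34, 0.10 and -0.62 without treatment and -0.26, -0.22 and -0.15 with particles. Untreated 3 was the lowest of the 6 arrays, so the groups overlapped (change -0.15, error 0.22, adjusted p = 0.666).

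None of 33 p53 targets was called with all 6 arrays, and their median change was -0.2. Against untreated 1 and 2 the median was -0.38, and against untreated 3 alone it was 0.13, so its sign turned. Without untreated 3, 16 were called lower and 4 higher, against 15.4% and 15.1% of all genes in that fit. Untreated 3 lay nearer to the particle mean on 27 of the 33 (81.8%, against 61.1% of all genes). None of 24 p53 regulators, 24 pro-apoptotic and 11 anti-apoptotic genes was called. The 25 proteasome genes turned on untreated 3 as well, with a median of 0.34 against untreated 1 and 2 and 0.013 against untreated 3. None of them was called with all 6 arrays and 14 were called higher without untreated 3, against 15.1% of all genes in that fit.

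**Figure D4:**
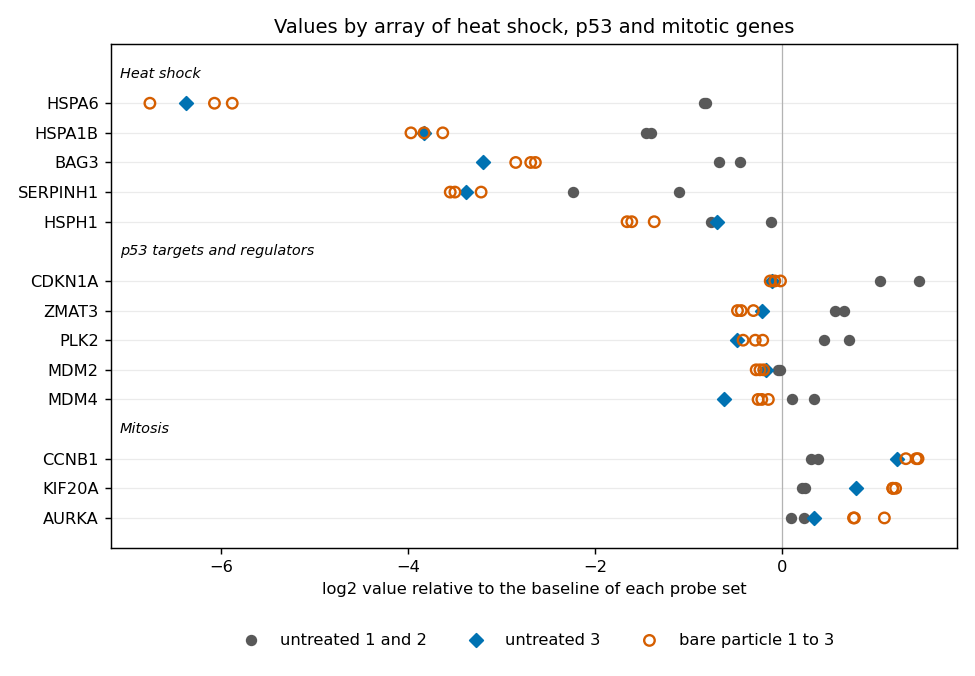
Value on each array (log2 relative to the baseline of the probe sets, horizontal axis) of heat shock, p53 and mitotic genes. Symbols are filled circles for untreated 1 and 2, diamonds for untreated 3 and open circles for particle arrays. On HSPA6, HSPA1B and CDKN1A the diamond lies among the open circles, and on HSPH1 it lies with untreated 2.

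Among 40 lists, 12 had a called member and 28 had none. Those with none included G1/S and replication (39 genes, median 0.21), DNA repair (25, median 0.17), NF-kB and inflammation (21, median -0.24), interferon (25, median -0.13), ribosomal proteins (29, median -0.11), oxidative phosphorylation (25, median 0.11), lysosome and autophagy (30, median 0.022) and endocytosis (32, median -0.081). The last of these lists hold genes through which cells take up and process particles, and no change was detected in them at this number of arrays.

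**Figure D5:**
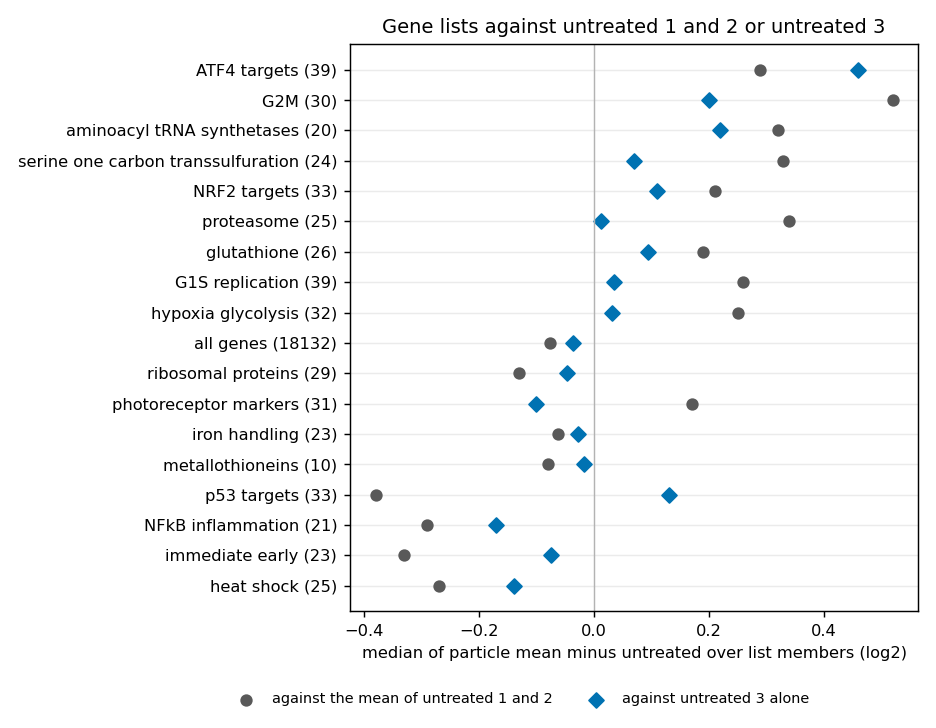
Median over the measured members of a list (number in brackets) of the particle mean minus untreated (log2, horizontal axis), against the mean of untreated 1 and 2 (circles) or untreated 3 alone (diamonds). ATF4 targets lie at 0.29 and 0.46, G2 and mitosis at 0.52 and 0.20 and p53 targets at -0.38 and 0.13, while all genes lie at -0.076 and -0.036.

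On the conjugate arrays, whose comparison shares the untreated arrays, the named genes took several courses. MT1X averaged -2.60 there against -3.08 untreated and 0.30 with bare particles, and PIR averaged -2.52 against -2.72 and 0.19. MT1F (-1.0) and SLC7A11 (-0.57) averaged between the untreated mean (-2.40 and -1.49) and the particle mean (0.10 and 0.22). HMOX1 averaged -0.20, above the bare particle mean of -1.53. INHBE averaged -3.88, below the untreated mean of -0.81, while FOS averaged 1.38, above the untreated mean of 0.11 and opposite to its fall with bare particles. These are means of 3 arrays without a test of the difference between the particle groups.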

How the data were processed

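RNA of 9 samples of Y79 cells was measured on 9 arrays, of which 6 were compared. The values the authors deposited were taken as log2, relative to a baseline that was inferred from the values (53.9% of probe sets with 1 symbol held an exact 0 on at least 1 of the 6 arrays). The summarization tool and normalization are not given in the sources used here. Probe sets were named from the platform annotation: of 49395, 102 array controls were left out, 44988 had 1 symbol, 1832 several and 2473 none. Genes were means over single-symbol probe sets (18132 genes, 6398 with 1 probe set). Differences were tested with limma 3.58.1 in R 4.3.3 with data.table, version 1.17.8 (lmFit and eBayes, 2-sided), adjusted by Benjamini-Hochberg over all genes at 0.05. Errors are standard errors of the fit. The number of arrays limits the precision.

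Named genes were the 10 largest rises and up to 10 falls among called genes with groups apart, up to 2 members per direction with the smallest adjusted p of each of 33 pathway and 7 marker lists, 16 genes of interest whatever their values, and every metallothionein probe set. The members, the genes of interest and the lists were chosen with earlier results of these data known, so a list's count is no independent evidence. Level classes (dim, middle, bright) were inferred from the step size of the stored numbers. Alternatives were 3 other scalings, leaving out arrays, a replicate block, a fit of 9 arrays, other variance models and gene summaries. The fit and the classes were tested on simulated data.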

Additional observations from a re-analysis of the deposited data

Results flagged for a closer look

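A signal appeared among probe sets outside the comparisons of genes, those with no or several symbols. Of these probe sets, 1832 with several symbols and 2473 with none, 1 was called when all 49293 probe sets were tested together. That test called 22 in all, 20 higher and 2 lower. The 1 was probe set 11739663_at, which has no symbol in the annotation. It read -1.48, -1.19 and -1.18 on untreated 1, 2 and 3 and 0, -0.16 and 0.06 on particle 1, 2 and 3, a change of 1.25 with an error of 0.13 (limma adjusted p = 0.0326). Untreated 3 lay with untreated 2.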

How the results depend on the processing

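All 61 called genes kept their direction under every alternative in which they were tested. Against 61 genes called as reported, quantile normalization called 223, trend and robust variance 22 and the median of probe sets 36. A fit of all 9 arrays called 4 (MT1F, MT1X, PIR and SLC7A11). Probe sets without an x, s or a suffix also gave 4 calls, but covered only 8354 genes, with 16 of the 61 among them. Of those 16, 3 were called again. Array weights called 10069, with a weight of 14.1 for untreated 2 against 0.201 to 1.29 for the others, and did not converge. Median centring (63), level centring (60) and leaving out the lowest level class (60) stayed close. Leaving out 1 array gave 0 to 5538 genes. Level centring without untreated 3, chosen after seeing the data, gave 4902. Same-numbered arrays did not deviate together (correlations -0.0382, 0.000526 and 0.0672), so the numbers were not taken as pairs, and with the replicate block 10 genes were called.

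Against 26 probe sets called as reported, quantile normalization called 51, trend and robust variance 10, array weights 18668 and the replicate block 9. Leaving out 1 array gave 0 to 9954, with 0 both without untreated 2 and without particle 1, where limma had 7379 and 5658 probe sets at an unadjusted p under 0.05.

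Of the list counts, 4 NRF2 targets became 13 without untreated 3, 12 with level centring too and 2 in the fit of 9 arrays. The 8 ATF4 targets became 15, 14 and 1, and 3 with the replicate block. The 4 serine, one-carbon and transsulfuration genes became 14, 12 and 0, and 0 with the replicate block. Both metallothioneins were called in all of these settings. Of all genes, 0.314% were called higher as reported and 15.1% without untreated 3. Calls in either direction were 0.336% of genes as reported, 30.5% without untreated 3 and 27% with level centring too. They were 0.0221% in the fit of 9 arrays and 0.0552% with the replicate block. Without untreated 3, 3 ATF4 targets and 2 serine, one-carbon and transsulfuration genes were called lower. Of the 20 named genes that passed, MT1F kept its call in 15 of 16 alternatives and PIR in 14 of 15, while PLEK2 kept it in 6 of 16. With 3 arrays per group and unequal spread (median SD 0.151 untreated, 0.0892 particle), no rise smaller than 0.58 was called.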

Other observations

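Of the 61 called genes, 41 were on no list. The genes given here were chosen after their values were seen, so they show no theme among the 41. NQO2, a quinone reductase related to NQO1, rose by 1.17 (error 0.14, limma adjusted p = 0.0306), GSTZ1, a glutathione transferase of tyrosine breakdown, by 1.12 (error 0.16, adjusted p = 0.0458) and GLRX, glutaredoxin, by 0.86 (error 0.12, adjusted p = 0.0379). Untreated 3 lay between untreated 1 and 2 on NQO2 and beyond them toward the particle arrays on GSTZ1 and GLRX.

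KIF18A, a mitotic kinesin, rose by 1.17 (error 0.14, adjusted p = 0.0285), HMMR, a spindle protein, by 0.84 (error 0.11, adjusted p = 0.0312) and NEK2, a centrosome kinase, by 0.72 (error 0.092, adjusted p = 0.0312). Untreated 3 lay between untreated 1 and 2 on HMMR and beyond them toward the particle arrays on KIF18A and NEK2. EXO1, a repair exonuclease, read -0.57, -0.52 and -0.56 on the untreated arrays and 0.18, 0.008 and 0 on the particle arrays (change 0.61, adjusted p = 0.0458), with untreated 3 between untreated 1 and 2.

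ARG2, the mitochondrial arginase, rose by 1.23 (error 0.13, adjusted p = 0.0175), SLC27A2, a fatty acid transporter and acyl-CoA synthetase, by 1.09 (error 0.10, adjusted p = 0.009) and PDK1, the kinase that restrains pyruvate dehydrogenase, by 0.74 (error 0.11, adjusted p = 0.0458). PDLIM3, a cytoskeletal PDZ and LIM protein, had close replicates, at -1.12, -1.09 and -1.03 untreated and 0.12, 0.077 and -0.0012 with particles (change 1.14, adjusted p = 0.00518). Untreated 3 lay between untreated 1 and 2 on SLC27A2 and beyond them toward the particle arrays on ARG2, PDK1 and PDLIM3.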
